A study of Mus musculus with 2 samples.

Results

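Voltage-gated and related ion channel genes were described at E14.5 in the cerebral cortex of wild type and Pax6-/- mouse embryos of the NMRI strain. The genes were chosen by a name rule, and the choice was made with earlier results of these data known. The rule took every probe set with a single gene symbol of a listed channel class. The classes were potassium (Kcn), sodium (Scn), calcium (Cacna, Cacnb, Cacng), chloride (Clcn), HCN and TRP (Trpc, Trpm, Trpv) channels. This gave 97 probe sets of 76 genes, out of 10833 probe sets and 8251 genes with a single symbol on the array. One member, Trpc4ap, encodes a protein that binds a TRP channel and is no channel itself. The study compared both genotypes to find genes that act downstream of Pax6, a transcription factor of cortical progenitors. The files hold 1 array of MAS5 signals for each genotype. The design text names 3 embryos per genotype, and pooling of their RNA is not stated in the labels. The labels name neither the mutant allele nor the method of dissection, and all embryos were NMRI. With no replicate array there is no replicate check, no difference was tested and no p-value is given.

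Ion channels are pore proteins that let selected ions cross a membrane. Voltage-gated sodium and calcium channels carry the inward current of the action potential and trigger transmitter release, potassium channels repolarise the cell and set its resting potential, and HCN channels carry a pacemaker current. Partner subunits, such as the calcium channel beta and gamma subunits, control traffic to the membrane and gating. In the embryonic cortex most of these genes rise as neurons mature, while potassium, chloride and TRP channels of progenitors are known to set membrane potential, cell volume and calcium entry.

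The data are linear signal intensities, with a median of 237.3 for the wild type array and of 283.7 for the mutant. The single Pax6 probe set read 1169 in wild type and 447 in the mutant array. Whether this probe set lies in the part of the gene that the allele alters is not known here, so it is no firm check of the labels. Neuronal and cortical markers were above the array median in wild type, with Tubb3 at 16221 and Tbr1 at 5088. Of 9 cortical neuron markers above the signal filter, 8 were lower in the mutant, and their median log2 ratio was −0.93. Their signals summed to 36742 in wild type and to 27394 in the mutant. The 5 subpallial and GABAergic markers were all higher, with summed signals of 888 and 11868, and the 2 intermediate progenitor markers were lower, with 6025 and 1044. Of the subpallial ones, Dlx1 and Dlx5 read 162 and 113 in wild type, below the level of the signal filter. They passed only through their mutant signal and had to be higher. Progenitor markers had 2 higher and 3 lower. Of the markers of other cells, 2 of 3 vascular ones that passed were higher, with signals over the list summing to 995 and 1642, and 3 of 4 meningeal ones, summing to 3589 and 3634. Of the meningeal ones, Col1a1 and Foxc2 read 140 and 120 in wild type, so they too had to be higher. Igf2, the meningeal marker that passed and was lower, read 1139 and 533. It was 2.05-fold lower, and no other of the 4 was past 2-fold. Lum, at 165 and 39.1, and Twist1, at 146 and 39.9, did not pass and were lower. Dcn and Foxc1 did not pass either and were slightly higher. Both choroid plexus markers were lower, summing to 1075 and 817. The part of any of these cells in the channel values below was not tested. In tissue RNA, fewer cells of a type and less RNA per cell cannot be told apart.

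Signals of a probe set depend on its own probes, so a signal ranks a gene against the array and not against another channel gene. By this measure most channel genes were dim at E14.5. In wild type 39 of the 97 probe sets (40.2%) lay above the array median, and in the mutant 38 (39.2%). Above the median of both arrays were 32 probe sets of 27 genes, or 33.0%, against 43.8% of all probe sets with a single symbol. A further 7 probe sets were above it on the wild type array only and 6 on the mutant array only, which left 52 below it on both. The families differed widely in this share. It was 10 of 13 chloride channel probe sets, 4 of 5 tandem-pore potassium channel probe sets and 4 of 8 for the pore-forming calcium alpha subunits, but 3 of 15 for inward rectifiers, 1 of 8 for sodium channels, 1 of 8 for TRP channels and 1 of 19 for voltage-gated potassium channels. The family counts are a description, since members of a family share sequence and some share a gene.

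**Figure D1:**
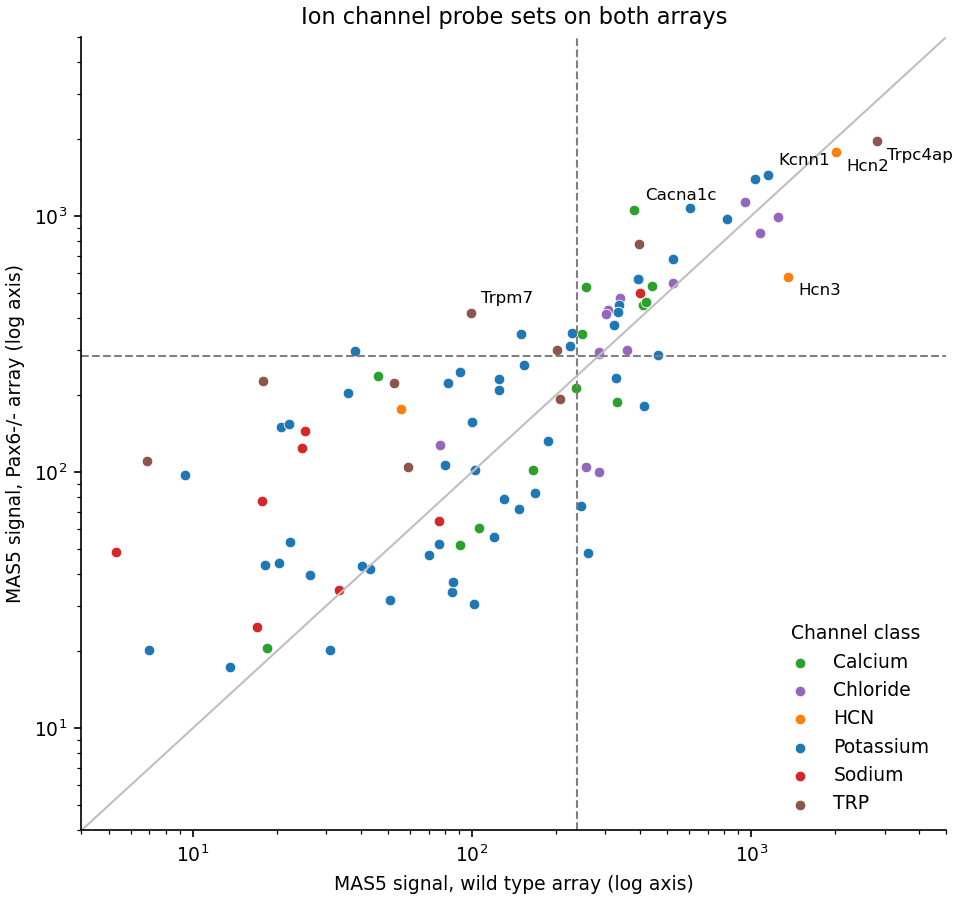
MAS5 signal of each of the 97 channel probe sets in wild type (horizontal, log axis) and in Pax6-/- (vertical, log axis), coloured by channel class. Dashed lines are the array medians, 237.3 and 283.7, and the grey line marks equal signal. The 32 probe sets in the upper right were above both medians, and the scatter widens towards dim signals.

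**Figure D2:**
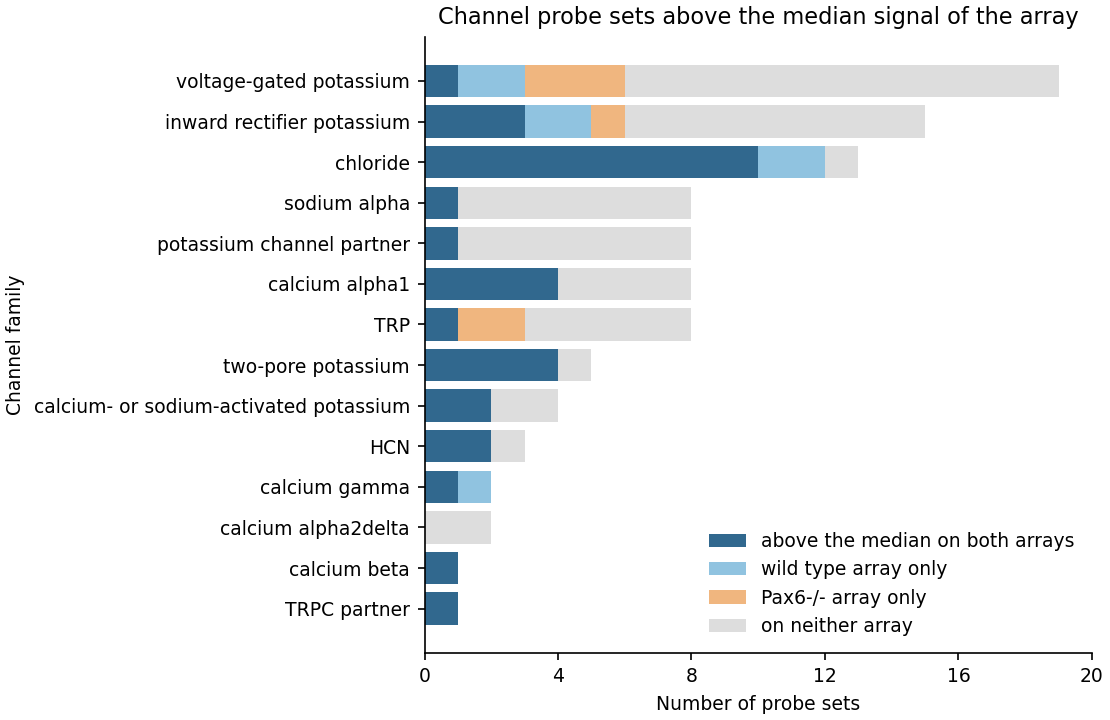
Number of probe sets of each channel family whose signal was above the array median on both arrays, on 1 array or on neither. Chloride and tandem-pore potassium channels lie mostly above the median on both arrays, with 10 of 13 and 4 of 5 probe sets. Voltage-gated potassium channels had 1 of 19.

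To compare the arrays, a log2 ratio of mutant over wild type was formed after adding 81.5, the 25th percentile of all signals, to each signal and centring on the median. The probe set with the highest mean log2 signal stood for its gene, and 39 of the 76 channel genes passed a filter at a signal of about 166. Of these, 2 genes were at least 2-fold higher in the mutant, against 5.05% of the 5585 genes that passed on the whole array, and 1 was at least 2-fold lower, against 5.46%. As a share of the 39 these 3 genes make 7.69%, which is not above the background of both directions together. Smaller differences leaned upwards. Of the 39, 25 were higher and 14 lower, with a median log2 ratio of 0.19, while 48.4% of all genes were higher and their median was −0.02. Among the 25, Trpm7, Kcna6, Kcnj3 and Kcnma1 were below the filter level in wild type. They passed only through their mutant signal and had to be higher, while none of the 14 passed only through wild type. After quantile or loess scaling 23 were higher and 16 lower. With no signal filter, all 76 genes had a median of 0.13, 44 being higher and 32 lower. The SD of the log2 ratio was 0.54 over the 39 genes and 0.62 over all genes. A technical spread, taken from probe sets of the same gene across the array, was 0.72 at signals below 472, 0.54 from there to 830 and 0.38 above. Variation between embryos is not part of it.

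Hcn3, which encodes a pacemaker channel subunit, was the channel gene past 2-fold on the lower side. The wild type signal was 1356 and the mutant signal 579, both above the median of their array. The log2 ratio was −1.17, a 2.24-fold difference, where the technical spread was 0.38. Over 7 settings, the main one included, that ratio ran from −1.28 to −0.98, and 6 of them put it past 2-fold. Averaging probe sets, 1 of the settings, could not change it, since Hcn3 has 1 probe set. Leaving out the centring shifts every gene by the same amount. Hcn2, its relative, was bright and much closer between the arrays, at 2009.9 in wild type and 1774 in the mutant. Its log2 ratio of −0.22 was smaller than the technical spread, and this probe set was built under relaxed selection rules, as its suffix shows. The second Hcn2 probe set was dim, at 55.8 and 177, with a log2 ratio of 0.87. The Hcn2 probe sets therefore differ in sign, and Hcn3 has 1 probe set to rest on.

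Cacna1c and Trpm7 were the channel genes past 2-fold on the higher side. Cacna1c encodes the pore of an L-type calcium channel. Its signals were 381 and 1052, above both medians, and its log2 ratio was 1.25, or 2.37-fold, against a technical spread of 0.54. That ratio ran from 0.998 to 1.41 over the settings, past 2-fold in 6 of 7, the main one included. Here too averaging probe sets could not change it. Trpm7 encodes a magnesium- and calcium-permeable channel fused to a kinase. It read 99.1 in wild type but 417 in the mutant. The log2 ratio was 1.42, or 2.67-fold, against a technical spread of 0.72. The wild type signal was below the filter level, so Trpm7 passed the filter only through its mutant signal and had to differ. Its ratio depended strongly on the pseudocount, from 0.88 with a larger one to 2.02 with none. Each of the genes was measured by 1 probe set, and that of Cacna1c carries a suffix for probes shared with other transcripts.

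The bases upstream of the annotated starts of both higher genes are shown to let a reader compare their composition, together with Kcnk1, a channel gene above both array medians with no CpG upstream. The 250 bases before each RefSeq start are given 5′ to 3′ on the gene's strand in GRCm38.p6, and capitals mark CpG dinucleotides. The array does not tell which start was used.
Trpm7, chr2:126876262-126876511, minus strand: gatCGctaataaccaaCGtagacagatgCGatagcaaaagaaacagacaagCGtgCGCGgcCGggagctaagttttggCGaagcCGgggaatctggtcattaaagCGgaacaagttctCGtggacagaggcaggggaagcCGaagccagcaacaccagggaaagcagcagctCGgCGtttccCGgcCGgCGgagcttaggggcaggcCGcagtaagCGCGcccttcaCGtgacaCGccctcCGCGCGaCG
Cacna1c, most upstream start, chr6:119196410-119196659, minus strand: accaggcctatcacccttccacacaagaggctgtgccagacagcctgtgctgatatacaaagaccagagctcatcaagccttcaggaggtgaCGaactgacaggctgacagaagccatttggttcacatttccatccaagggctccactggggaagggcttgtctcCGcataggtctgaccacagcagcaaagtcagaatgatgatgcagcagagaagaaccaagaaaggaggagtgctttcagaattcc
Cacna1c, middle start, chr6:119108496-119108745, minus strand: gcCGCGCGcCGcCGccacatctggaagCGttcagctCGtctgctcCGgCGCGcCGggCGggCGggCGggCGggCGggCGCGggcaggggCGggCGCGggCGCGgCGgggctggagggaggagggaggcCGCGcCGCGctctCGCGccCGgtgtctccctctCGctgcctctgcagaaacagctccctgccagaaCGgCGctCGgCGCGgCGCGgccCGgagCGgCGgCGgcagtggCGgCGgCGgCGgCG
Cacna1c, most downstream start, chr6:118757975-118758224, minus strand: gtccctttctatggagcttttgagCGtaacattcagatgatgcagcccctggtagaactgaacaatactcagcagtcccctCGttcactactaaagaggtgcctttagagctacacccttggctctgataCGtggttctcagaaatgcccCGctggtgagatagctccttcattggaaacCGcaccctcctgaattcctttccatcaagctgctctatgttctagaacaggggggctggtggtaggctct
Kcnk1, chr8:125994852-125995101, plus strand: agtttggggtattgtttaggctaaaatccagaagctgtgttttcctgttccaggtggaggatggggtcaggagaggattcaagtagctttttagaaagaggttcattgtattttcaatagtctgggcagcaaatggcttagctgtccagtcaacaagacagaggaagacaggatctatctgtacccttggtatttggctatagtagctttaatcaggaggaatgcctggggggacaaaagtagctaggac

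Trpm7 had 26 CpG dinucleotides in this window, the middle Cacna1c start 48 at a G+C content of 82.8%, the most upstream Cacna1c start 2 and the most downstream one 5. Relative to the number expected from its C and G content, the CpG count was 1.15 for Trpm7, 1.14 for the middle, 0.12 for the most upstream and 0.32 for the most downstream Cacna1c start. Of the 76 channel genes, 61 had a start in the RefSeq table. Their median ratio of observed to expected CpG was 0.47, averaged over the starts of a gene, against 0.67 over 6576 genes of the array, members included. Among genes with a probe set above both array medians it was 0.47 for 23 channel genes and 0.75 for 3340 genes of the array. For genes below both medians it was 0.41 for 30 channel genes and 0.50 for 2251 genes. Bright channel genes thus lay below the typical bright gene in CpG content in these windows, and no test was made of that difference. The bHLH E-box CATCTG, searched on both strands (CAGATG on the other), was found in the windows of 11 of 61 channel genes, or 18.0%, Trpm7 and Cacna1c among them. It was found for 12.7% of the 6576 genes and in 14.4% of all 32851 windows. The GC box GGGCGG, also searched on both strands (CCGCCC on the other), was found for 34 channel genes, or 55.7%, against 58.9% of the genes and 32.7% of all windows. A match of letters is no evidence of a bound site.

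**Figure D3:**
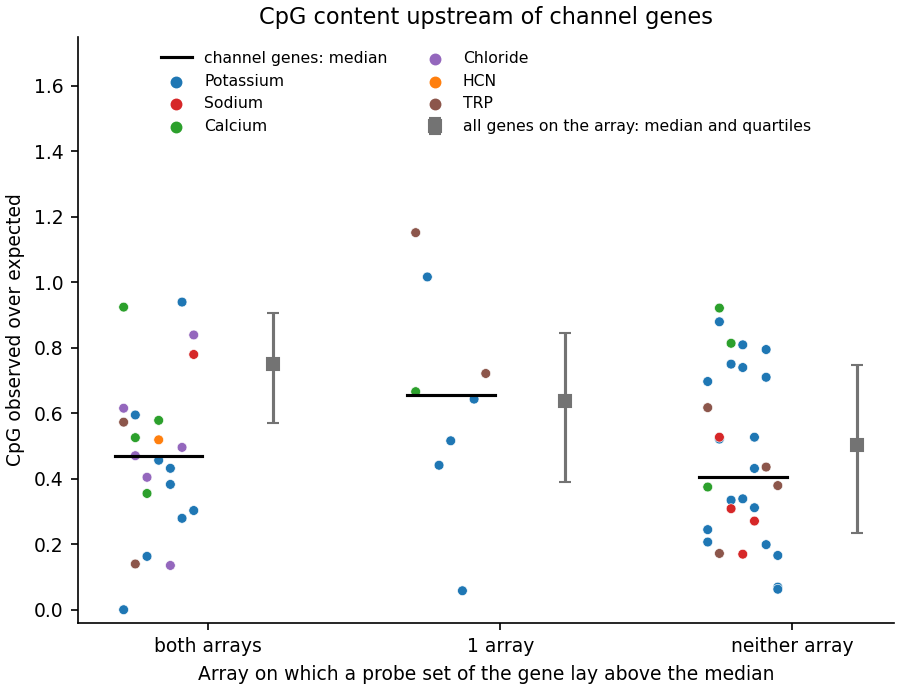
Ratio of observed to expected CpG in the 250 bases upstream of 61 channel genes (points, coloured by class; black lines are their medians), by whether a probe set of the gene was above the median of both arrays, of 1 array or of neither. Grey squares and bars are the median and quartiles of all genes on the array in the same class. For genes above both medians the channel median was 0.47 and that of all genes 0.75.

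The remaining TRP members were mostly dim. Trpm1, best known as the channel of retinal bipolar cells, had signals of 398 and 778, above both medians, with a log2 ratio of 0.80 against a spread of 0.54. Trpc1, a store-linked cation channel, had signals of 202 and 299, below the wild type median and just above the mutant one, and a log2 ratio of 0.38. Its second, dimmer probe set had 52.5 and 222. Both Trpc1 probe sets were higher in the mutant, although the brighter one differed by less than the technical spread. Trpv2 was below both medians at 207 and 193, and the probe sets of Trpc4, Trpc5 and Trpc6 did not pass the filter. The binding protein Trpc4ap had signals of 2813 and 1953 and a log2 ratio of −0.55, which became −0.36 after loess scaling.

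Among the pore-forming calcium channel subunits, 4 of 7 genes were above both medians. Beside Cacna1c these were Cacna1e, the R-type pore, at 255 and 527, Cacna1b, the N-type pore that triggers transmitter release, at 411 and 448, and the T-type Cacna1h at 421 and 460.1. The log2 ratio of Cacna1e was 0.81 against a spread of 0.72, on a probe set with a suffix for probes shared with other transcripts. Its second probe set, without a suffix, was at 18.5 and 20.7, near the floor of the arrays, with a log2 ratio of −0.01. Cacna1b and Cacna1h were almost equal, with log2 ratios of 0.06 each, and they turned to −0.04 and −0.03 after loess scaling. Cacna1a, the P/Q-type pore, Cacna1g, another T-type pore, and Cacna1s, the pore of skeletal muscle, did not pass the filter. The highest signal of these 3 genes was 165 in wild type, against 236 in Pax6-/-.

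Partner subunits of calcium channels were close between the arrays. Cacnb2, a beta subunit that brings the pore to the membrane, had signals of 441 and 535 and a log2 ratio of 0.19. Cacng1, the gamma subunit of muscle channels, had 248 and 346, a ratio of 0.33 with a spread of 0.72. Cacng2 (stargazin), which also carries AMPA receptors to synapses, had 331 and 187, and its ratio of −0.66 was within the spread as well. Cacna2d1 lay just under the median of the wild type array, at 235 against 237, and had 213 in the mutant. Cacna2d3 was dimmer, at 90.8 and 52.0. No partner subunit of a calcium channel was 2-fold apart. Over all 8 calcium channel genes that passed the filter 6 were higher and 2 lower, and after quantile or loess scaling 4 were higher and 4 lower.

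Sodium channel genes were dim with the exception of Scn8a. Scn8a, the pore of the axon initial segment and nodes in mature neurons, had signals of 400.4 and 500.3 on one probe set and of 5.33 and 49.0 on the other. The log2 ratio of the brighter was 0.23, within its spread of 0.72. All 7 other sodium channel probe sets, counting the second one of Scn8a, were between 5.33 and 76.0 in wild type and between 24.8 and 145 in the mutant. Scn3a, a pore known for its embryonic expression, was measured by 1 probe set and had signals of 16.95 and 24.8. Both Scn1a probe sets were below both medians and differed in sign, with log2 ratios of 1.04 and −0.16. None of Scn1a, Scn3a, Scn7a, Scn9a and Scn10a passed the filter.

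Potassium channels made up 43 probe sets of 36 pore-forming genes, and 16 of these genes passed the filter. None was 2-fold apart, and 13 were higher and 3 lower in the mutant, with a median log2 ratio of 0.34. This split was the same under no centring, quantile scaling and loess scaling, where the median was 0.30 for both of the last. With no signal filter 20 of the 36 genes were higher and 16 lower, at a median of 0.13. Of the 13, Kcna6, Kcnj3 and Kcnma1 had wild type signals of 150.1, 125 and 154, below the filter level, and passed only through their mutant signal.

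Tandem-pore channels carry the background leak that holds the resting potential, and 4 of 5 genes were above both medians. Kcnk1 had signals of 333 and 421. The stretch-sensitive Kcnk2 had 397 and 569. Its close relative Kcnk4 had 392 and 565. Kcnk7 had 525 and 676. All were higher in the mutant, with log2 ratios of 0.23, 0.40, 0.40 and 0.28, each smaller than its technical spread of 0.54 to 0.72. Kcnk3 was near the floor at 20.4 and 44.3.

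Calcium-activated potassium channels were also higher where they passed the filter. Kcnn1, a small-conductance channel of neurons, had signals of 1145 and 1439, a log2 ratio of 0.27 against a spread of 0.38. Kcnn4, the intermediate-conductance channel of red cells, lymphocytes and microglia, had 605 and 1071, a ratio of 0.70 against a spread of 0.54. Microglial markers moved with it: 3 of 4 passed the filter and all 3 were higher, Csf1r from 372 to 1284, and the summed signal of the 4 was 1109.7 in wild type against 2954. The Csf1r and C1qb probe sets carry a suffix, while that of Cx3cr1, at 416 and 878, does not. Aif1, which did not pass, read 45.3 and 61.9. Of 6 erythroid markers measured 4 passed, 2 higher and 2 lower, with summed signals of 15492 and 13070.4. Of the higher ones, Slc4a1, at 148 and 252, passed only through its mutant signal and had to be higher. The part of either cell type in the Kcnn4 difference was not tested. Kcnma1, the large-conductance channel, had 154 and 263 and a ratio of 0.50, and Kcnu1 did not pass the filter.

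Inward rectifiers pass current more easily into the cell and include the G protein-gated and the ATP-sensitive channels. Kcnj11, the pore of the ATP-sensitive channel, was the farthest apart of those that passed the filter, with signals of 413 and 182 and a log2 ratio of −0.96, 1.94-fold, against a spread of 0.72. It was above the median in wild type only. Kcnj4 had 464 and 286, just above the mutant median, and a ratio of −0.62. The G protein-gated subunits that passed the filter were on the other side by their brightest probe sets. Kcnj5, another such subunit, did not pass and was lower, at 31.0 and 20.1. Kcnj9 was above both medians with both of its probe sets, at 818 and 973 and at 335 and 451, and log2 ratios of 0.18 and 0.31. Kcnj6 had 229 and 350.2 on one probe set, a ratio of 0.43, and 102 and 30.7 on the other, a ratio of −0.76. Kcnj3 had 125 and 231, passed only through its mutant signal and had to be higher. For the brightest probe set of each gene, these differences apart from that of Kcnj11 were within the technical spread, and 6 of the 11 inward rectifier genes did not pass the filter.

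Voltage-gated potassium channels, which end the action potential, were the dimmest large family: 12 of 16 genes did not pass the filter. Kcnq1, a slow delayed rectifier best known from heart and epithelia, had signals of 1031 and 1397 on a probe set built under relaxed rules, and 38.2 and 297 on the other. The log2 ratios of 0.37 and 1.61 share a sign. Kcna6 and Kcna3, delayed rectifiers of the Shaker type, were above the mutant median only. Kcna6 had 150.1 and 345, a ratio of 0.84, and Kcna3 had 225 and 311, a ratio of 0.31. Kcnh2, the pore of the rapid delayed rectifier, had 328 and 232, a ratio of −0.43. Among those that failed the filter, the A-type channel gene Kcnd1 read 261 and 48.1. The partner subunit gene Kcnab2 had 323 and 377 on one probe set and 85.1 and 34.1 on the other, with ratios of 0.13 and −0.57, and the other 5 partner genes did not pass.

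**Figure D4:**
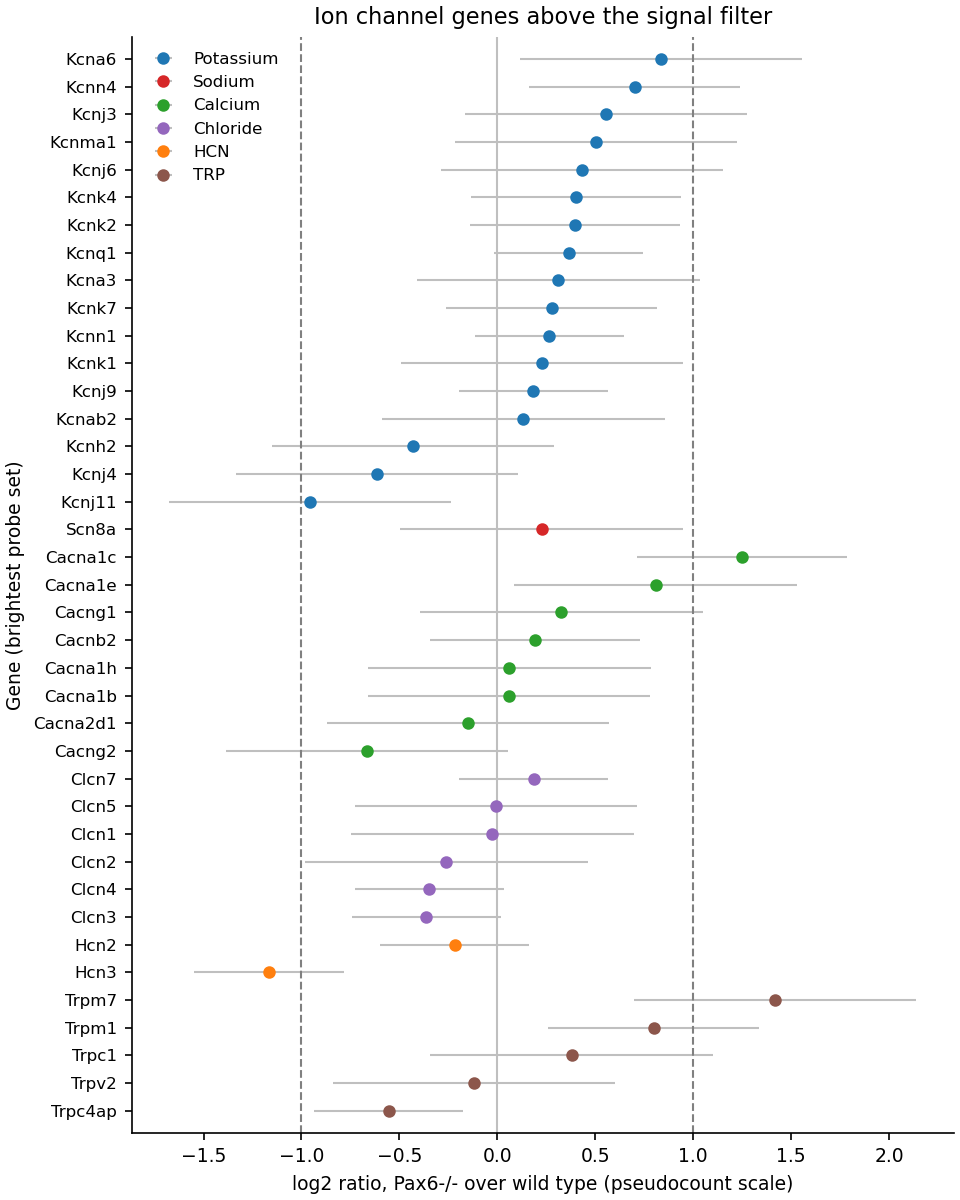
log2 ratio of Pax6-/- over wild type (pseudocount scale) for the 39 channel genes above the signal filter, each by its brightest probe set and coloured by class. Grey bars are the technical spread at that signal, not a replicate error, and dashed lines mark 2-fold. Hcn3 at −1.17, Cacna1c at 1.25 and Trpm7 at 1.42 are past the lines.

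Each of the 6 chloride channel genes had a probe set above both medians. They were the endosomal exchangers Clcn3, Clcn4 and Clcn5, the lysosomal Clcn7, the plasma membrane channel Clcn2 and the muscle channel Clcn1. Clcn3 was brightest on a probe set at 1250.5 and 987, with a log2 ratio of −0.36. Clcn4 had 1078 and 859, a ratio of −0.35, and on its second probe set 526 and 546, a ratio of 0.00. Clcn7 was higher on both probe sets, at 951 and 1130.1 and at 339.9 and 478, with ratios of 0.18 and 0.36. Clcn2 had 360.0 and 299, Clcn5 285 and 295, and Clcn1 284 and 289, just above the median of each array. That Clcn1 probe set was built under relaxed rules and had a log2 ratio of −0.03. The other Clcn1 probe set was below both medians, at 76.7 and 128, with a log2 ratio of 0.36. By its brightest probe set each of the 6 genes was within 2-fold, but a dimmer Clcn3 probe set had a log2 ratio of −1.06, or 2.08-fold, and a dimmer one of Clcn5 −0.90. By the brightest ones 5 were lower and 1 was higher, but with no centring 3 were lower and 3 higher, so the family has no settled direction.

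Probe sets of the same gene often disagreed. Of the 19 channel genes with at least 2 probe sets, 9 had probe sets of the same sign and 10 did not. Among the 5 with at least 2 above the filter, the 2 brightest shared a sign in 3, while on the whole array this held for 54.1% of 893 genes. The 4 Clcn3 probe sets, all above the filter, gave log2 ratios of −0.36, 0.35, 0.32 and −1.06, the last from signals of 284 and 100.01. Both of Clcn5 were lower, at −0.01 and −0.90, from 255 and 105 on the dimmer one.

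**Figure D5:**
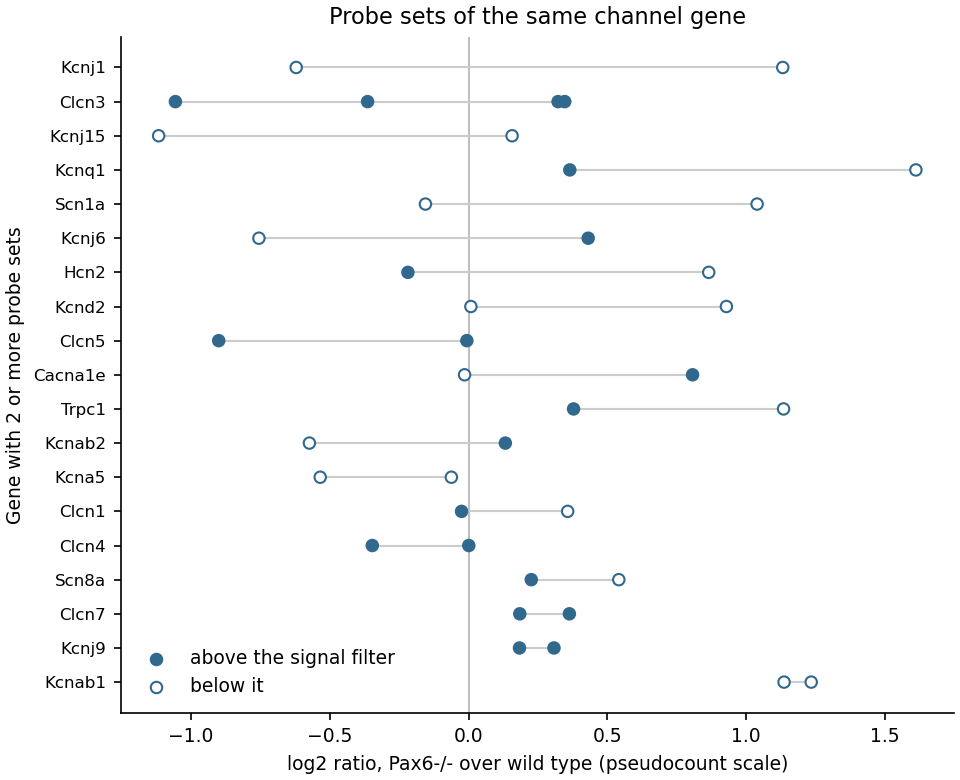
log2 ratio of Pax6-/- over wild type (pseudocount scale) for every probe set of the 19 channel genes with at least 2, filled where the probe set was above the signal filter. Lines join the probe sets of a gene. Clcn3, with 4 filled points, spans −1.06 to 0.35, and Kcnj9 and Clcn7 show the same sign with narrow gaps.

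Below both array medians, signals were more often higher on the mutant array: 32 of 52 channel probe sets, or 61.5%, against 65.9% of all 4520 such probe sets. In this share of signs, though not in the shares past 2-fold below, the dim channel probe sets were close to the dim part of the array. The signal filter left out 51 of the 97 channel probe sets. Of these, 9 were past 2-fold upwards in the mutant (17.6%) and 2 downwards (3.92%), against 9.64% and 5.35% of all 4221 probe sets with a single symbol under the filter.

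Other genes of excitability were taken from a list by role. Of 13 ion pump and gradient genes listed 7 passed the filter, 5 higher and 2 lower with a median log2 ratio of 0.26. Atp1b2, a sodium pump subunit, was 2.40-fold higher, with signals of 91.1 and 346. It passed only through its mutant signal and so had to differ, and the same holds for Slc8a1, at 148 and 386. Slc12a5, the neuronal chloride extruder, had 543 and 692, and Slc12a2, the chloride importer of immature neurons, had 388 and 380.4. Of 8 channel anchors and regulators that passed, 6 were lower and 2 higher, and the median log2 ratio was −0.39. Dlg4, the postsynaptic scaffold, was 3.40-fold lower, at 430.3 and 73.7, and Calm2, a calmodulin gene, was 2.32-fold lower, at 394 and 129.7. The axonal protein gene Cntnap1 was 2.59-fold higher, at 84.8 and 362. Each of these 3 genes was below the filter level on the array where it was low, passed only through the other array and had to differ. Ank3, which anchors sodium channels at the axon initial segment, had 937 and 696, a ratio of −0.43. Of 5 intracellular calcium release genes measured only Ryr3 passed, at 359 and 273. Of 9 channels outside the name rule 5 passed, 4 higher and 1 lower with none past 2-fold, among them the acid-sensing channel Asic2 at 341 and 632.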

How the data were processed

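The authors deposited linear signal intensities, 1 per probe set and array, made with MAS5 per the submitters' processing notes; the sources used here give neither its version nor its scaling target. Biotin-labelled cRNA was made from 6 micrograms of total RNA, per the labels' protocols. Of 12488 probe sets 66 are controls, which were left out of the log2 ratios. GEO's platform annotation named a single gene for 10855 probe sets, more than 1 for 396 and no gene for 1237, and all 76 channel symbols matched GRCm38.p6 by gene ID. Array medians were taken over all probe sets.

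To each deposited intensity 81.5, the 25th percentile, was added before log2. Differences, mutant minus wild type, were then centred by subtracting their median of 0.05 over probe sets whose mean log2 value reached the 40th percentile. Technical spread is the SD of the difference between the 2 brightest probe sets of a gene, divided by the square root of 2, in 3 equal groups by mean signal over 893 genes. The number of arrays limits the precision. The genes named were Pax6, every channel gene with a probe set above both medians, at least 2-fold apart, or with at least 2 probe sets of which 1 passed the filter, which gave 30 channel genes; others named were chosen after their values were seen. The members and lists were chosen with earlier results of these data known.

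Alternatives were other pseudocounts (none with signals floored at the 1st percentile, and the 50th percentile), filters (none or the 60th percentile), scalings (none, quantile, or loess with fraction 0.4 and 3 iterations), averaging the probe sets of a gene, no suffixed probe sets, thresholds of 1.5-fold and 3-fold, and other levels in place of the array median. The steps were tested on simulated data. Suffixes mark probes shared with other transcripts or chosen under relaxed rules, and 18 channel probe sets carry one. Sequences are from RefSeq. Python 3.11.15, numpy 2.4.6, pandas 2.3.3, statsmodels 0.14.6 and matplotlib 3.10.9 were used.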

Additional observations from a re-analysis of the deposited data

How the results depend on the processing

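The counts past 2-fold are small and moved with the settings. The 3 genes kept their directions where their values were recomputed, but these settings reuse the same 2 arrays and could hardly reverse them. A pseudocount cannot change which signal is higher, the centring shift was 0.05, and each of the 3 genes has 1 probe set. Trpm7 had to be higher to pass the filter. Genes at least 2-fold higher numbered 0 with the 50th percentile pseudocount (all genes 1.61%), 6 of 76 with no signal filter (6.02%), 1 of 22 with the 60th percentile filter (2.49%) and 1 of 33 without suffixed probe sets (5.14%); at 1.5-fold there were 6 (14.0%) and at 3-fold 0 (1.04%). Genes at least 2-fold lower numbered 2 with no pseudocount (all genes 7.82%), 0 with the 50th percentile pseudocount (2.29%), 4 with no signal filter (6.37%) and 2 after quantile (6.34%) or loess scaling (6.50%); at 1.5-fold there were 4 (15.1%) and at 3-fold 0 (1.22%). Part of these changes follows from fewer or more genes tested; beyond that the cause was not tested. Above the 60th percentile of both arrays lay 20 channel probe sets in place of 32, as a stricter level gives. The median log2 ratio stayed between 0.13 and 0.27 in the 9 alternatives. The named genes were recomputed for 6 alternatives, which leave out the other filters and the removal of suffixed probe sets. Without suffixed probe sets Cacna1c, Cacna1e, Clcn1, Hcn2, Kcnab2 and Kcnq1 have no value. All 186 recomputed values of the named genes moved by less than 1 technical spread, and 4 channel genes near 0 changed sign. Averaging could not move a gene with 1 probe set above the filter. No paired analysis was possible because each genotype has 1 array. With 1 array a genotype, precision cannot be estimated.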

Other observations

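Of the 51 channel probe sets under the filter level, 9 exceeded 2-fold upwards in the mutant, against 9.64% of all probe sets under it, and 2 downwards, against 5.35%. Those named here were chosen after their values were seen. Both probe sets of Kcnab1, a partner subunit that inactivates Shaker-type potassium channels, were on the higher side, with signals of 22.1 and 154 on one and of 36.1 and 204 on the other, and log2 ratios of 1.14 and 1.24. Of the genes of canonical TRP channels, Trpc4 had signals of 17.9 and 228, Trpc6 6.88 and 110.3, and the second Trpc1 probe set 52.5 and 222, all with log2 ratios above 1. The Trpc4 probe set carries a suffix, and so does the Kcnab1 one at 36.1 and 204. Trpc5, also under the filter, had 59.0 and 104 and a log2 ratio of only 0.36. The brighter Trpc1 probe set, which passed, had 0.38. Cacna1a, the P/Q-type calcium channel pore, had 46.0 and 236. On the lower side, one Kcnj15 probe set, which carries a suffix, read 245 and 74.0, and Kcnd1 had a log2 ratio of −1.44 (signals of 261 and 48.1). A probe set under the filter could not be above the median of both arrays, since the filter level lies below both medians.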
